A study of Mus musculus with 121 samples.

Results

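The centrosome and cilium genes described here are 74 mouse gene symbols from 3 count tables of cells in which the transcription factor YY1 could be degraded on demand. They were taken by name alone: symbols that begin with Cep, Ift or Bbs followed by a digit, plus Cdk5rap2, Pcnt and Cntrob. The RNA-seq time series listed 73 of them among 55351 symbols, the table of nascent RNA listed 62 among 25208, and the table of untreated lines listed 43 among 22493. All 3 tables shared 42 of them.

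The cells were G1E-ER4, mouse erythroid progenitors derived from embryonic stem cells that lack GATA1 and carry a hormone-activated form of it. The YY1-AID subline carries a degron on YY1: adding auxin, a plant hormone, sends the tagged protein for breakdown. Asynchronous cells of this subline were collected for RNA-seq at 0, 4, 24 and 48 h of auxin, with 3 libraries at each time. Nascent RNA was measured by TT-seq in untreated cells and after 4 h of auxin, with 3 libraries each, from RNA labelled for 5 min with 500 µM 4-thiouridine. A separate RNA-seq table held untreated parental cells, the untreated YY1-AID subline and an untreated second line named YY1-AID subline3, with 2 libraries each. All auxin results rest on the 1 YY1-AID subline. The 24 and 48 h libraries were compared with the 0 h libraries, so time in culture and loss of YY1 cannot be told apart there. No parental cells with auxin were among the RNA-seq and TT-seq libraries. An effect of auxin itself and loss of YY1 thus cannot be told apart at any time, 4 h included. The labels do not say whether replicates are separate cultures, so p-values measure the spread between these libraries, which may be partly technical.

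The centrosome is a pair of centrioles, short cylinders of microtubules, held in a protein matrix (the pericentriolar material) from which most microtubules of an animal cell grow. New centrioles form once per cell cycle beside the old ones, through a cascade of Cep proteins and the kinase Plk4. In a resting cell the older centriole can dock at the membrane through its appendages and template a primary cilium. Intraflagellar transport trains, made of IFT-B complexes that move outward with kinesin and IFT-A complexes that return with dynein, build the cilium, and the BBSome carries membrane proteins in and out of it. Blood cells are generally regarded as lacking primary cilia, and several cilium proteins have roles at the centrosome or in vesicle traffic there. YY1 is a zinc finger protein that binds near transcription start sites, where its best known motif contains the letters ATGG.

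Reference promoters show where letters of that motif stand in these genes. The motif AANATGGC (N is any base) was searched on both strands of RefSeq promoter windows (GRCm38.p6, 250 bases before to 50 after the annotated start). Of the 74 symbols 54 had a window, and 7 of these (13.0%) held the motif, beside 1881 of 27025 genes (6.96%) in the whole table. With the shorter motif AANATGG, which every match of the longer one also holds, the shares were 12 of 54 (22.2%) and 18.2%. Cdk5rap2, whose RNA fell furthest of these genes, carried 4 matches, all as written on the gene's own strand. Among the 27025 genes, 8 had at least 3 matches in a window and 1, Cdk5rap2, had at least 4. This count was looked at after the values of Cdk5rap2 were known, and a match is a run of letters, not a measured binding site.

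The Cdk5rap2 sequence is shown because its matches are so many: first the 250 bases before its start at chr4:70410436-70410685, minus strand, with matches in capitals 216, 170 and 105 bases before the start, then 30 bases with the match that begins at base 8 after the start (chr4:70410410-70410439). The other windows are of the 4 further genes with a match that could be tested in both the nascent RNA and the time series (Cep250 at chr2:155956447-155956476, plus strand; Cep72 at chr13:74062247-74062276, minus; Ift88 at chr14:57423831-57423860, plus, matched on the opposite strand; Bbs1 at chr19:4906587-4906616, minus).
Cdk5rap2 before the start: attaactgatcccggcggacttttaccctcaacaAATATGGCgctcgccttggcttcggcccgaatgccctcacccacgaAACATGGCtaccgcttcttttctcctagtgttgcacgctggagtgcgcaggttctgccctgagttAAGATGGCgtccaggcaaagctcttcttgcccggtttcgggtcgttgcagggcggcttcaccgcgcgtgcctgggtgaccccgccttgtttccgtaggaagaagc
Cdk5rap2 at the start: aagcgccgggaAAGATGGCggcggctgcgg
Cep250: tgccagtacttAATATGGCgagaggtttgc
Cep72: tccggtttgaaAACATGGCgccaggccagc
Ift88: tattcatccggGCCATCTTgctctggtctc
Bbs1: cgacgcctgggAAAATGGCtgcggcgtctt
Of the members lower at 24 h that had a window, 1 of 11 (9.09%) held AANATGGC, beside 2 of 19 (10.5%) of those higher and 3 of 18 (16.7%) of those past the threshold in neither direction. Bbs4, Cep128 and Cep135 had windows without AANATGGC or AANATGG, and Cep350 had no window. No peak lists of YY1 were joined to these genes here.

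Gene counts per library were 30229935 to 53453617 in TT-seq, 25093000 to 26210181 in the time series and 35171508 to 44919735 in the untreated lines. Levels are given as CPM, read counts scaled to the library's total and corrected with edgeR's TMM factors, comparable between libraries of one table but not between genes, because gene length is not divided out. Yy1 RNA was 239.5 to 276.8 CPM at 0 h and 236.5 to 307.6 CPM in the auxin libraries of the time series, which cannot check the labels because the degron acts on the protein. Erythroid markers were present, with a summed level of 11 genes of 2606.8 to 2685.8 CPM at 0 h, 2606.8 to 2687.1 CPM at 4 h, 2053.7 to 2274.9 CPM at 24 h and 2461.2 to 2783.8 CPM at 48 h. None of the 11 passed at 4 h, while 4 were higher and 5 lower at 24 h and 5 and 5 at 48 h. Slc4a1, which encodes the anion exchanger of red cells, rose (2.30 ± 0.26 at 24 h and 2.85 ± 0.26 at 48 h), and the progenitor factor Gata2 fell (−0.86 ± 0.09 and −0.51 ± 0.08). Changes of the 11 ranged from −0.86 to 2.30 at 24 h (median −0.17) and from −0.57 to 2.85 at 48 h (median 0.26). Slc4a1 and Gata2 thus lay at the ends of the range at 24 h, and at 48 h a marker other than Gata2 fell furthest. With 4 higher and 5 lower, then 5 and 5, these 2 do not stand for the list. Of 6 markers of multiciliated cells Foxj1, Dnah5 and Tekt1 were at 0 in all 12 libraries, and the summed level of the list was at most 0.2 CPM. Summed levels were also at most 1.76 CPM for 4 lymphoid, 1.13 CPM for 6 myeloid and 0.97 CPM for 3 pluripotency markers. The 6 megakaryocyte markers summed to 65.6 to 87.0 CPM at 0 h, 71.8 to 86.8 CPM at 4 h, 143.4 to 184.6 CPM at 24 h and 285.8 to 312.4 CPM at 48 h. Mast cell markers, of which Cpa3 made nearly all counts, summed to 36.1 to 59.5 CPM at 0 h and 58.8 to 85.7 CPM at 24 h. In bulk RNA, fewer cells of one type and less RNA per cell cannot be told apart.

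After 4 h of auxin, nascent RNA of 7 members fell and that of 3 rose, of 55 tested. Those that fell were the pericentriolar scaffolds Cdk5rap2 and Pcnt, the BBSome subunit Bbs4, the appendage protein Cep128, the microtubule anchoring protein Cep350, and the centriole proteins Cep135 and Cep97. Those that rose were the IFT-B pair Ift81 and Ift74 and the BBSome subunit Bbs7. Tests here and below are edgeR quasi-likelihood tests over all genes of a table, with Benjamini-Hochberg adjustment and a threshold of 0.05. The members' 12.7% lower and 5.45% higher stand beside 7.09% and 2.11% of all 11218 genes tested. The median log2 fold change of the members was 0.02, the same as that of all genes (0.02).

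**Figure D1:**
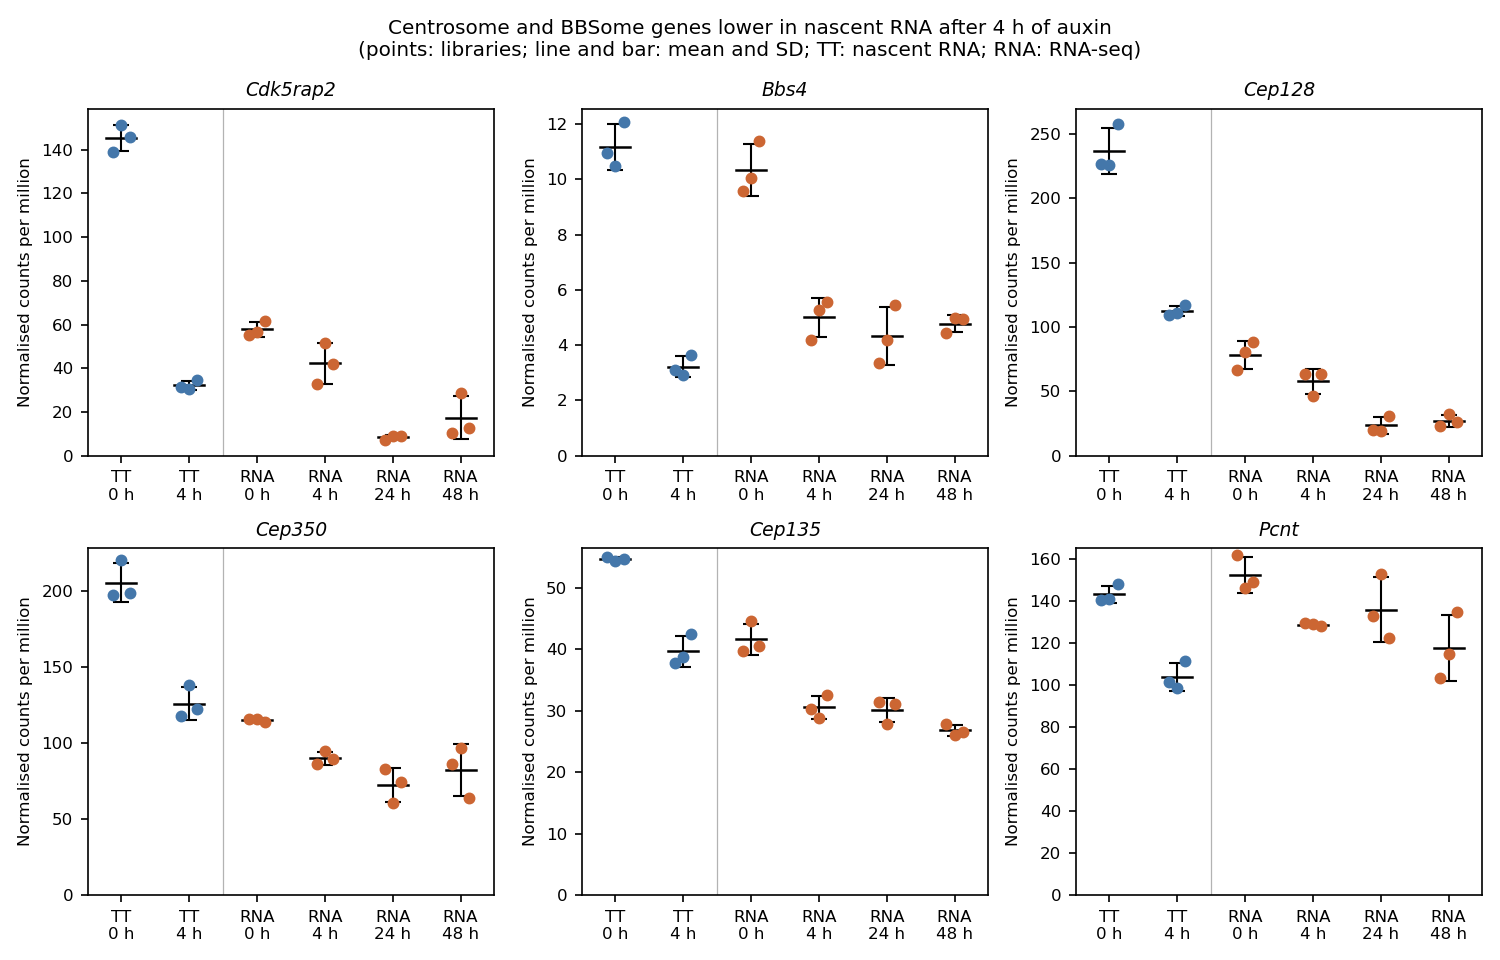
Normalised CPM (y axis, from 0) of 6 genes in TT-seq (blue) and RNA-seq (orange) libraries by hours of auxin; points are libraries, lines and bars the mean and SD. In TT-seq the 3 untreated and 3 auxin libraries do not overlap for any of the 6 genes. The genes were chosen because they passed as lower in TT-seq, so this is not separate support. The share of all genes without overlap is not given. Cdk5rap2 RNA is lowest at 24 h, with 1 of the 3 libraries at 48 h (28.6 CPM) above the other 2.

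Cdk5rap2 builds the scaffold that recruits gamma-tubulin ring complexes, the seeds of microtubules, to the centrosome. Its nascent RNA stood at 139.1, 151.4 and 145.7 CPM in the untreated libraries and at 31.5, 30.6 and 34.6 CPM after 4 h of auxin. The groups lay far apart, and the level fell by 77.9% (log2 fold change −2.17 ± 0.09 SE, edgeR adjusted p = 2.62e-05). Counted from the lowest log2 fold change, it ranked 9 of the 11218 genes tested. In RNA-seq Cdk5rap2 was at 55.1, 56.5 and 61.8 CPM at 0 h, and at 33.0, 51.6 and 42.1 CPM at 4 h. All 4 h libraries were below all 0 h libraries, but the log2 change of −0.45 ± 0.27 did not pass (edgeR adjusted p = 0.366). At 24 h the level was 7.26, 9.10 and 9.11 CPM, a fall by 85.3% (−2.77 ± 0.30, edgeR adjusted p = 9.24e-06). At 48 h the libraries were at 10.6, 28.6 and 12.9 CPM, so that replicate 2 held more than double the level of the others, and the change from 0 h was −1.74 ± 0.28 (edgeR adjusted p = 1.78e-04). The rise from 24 to 48 h, 1.03 ± 0.30, did not pass (edgeR adjusted p = 0.0612).

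Bbs4, the BBSome subunit that binds pericentriolar satellites, was the member with the second largest fall in nascent RNA. It was at 10.9, 10.5 and 12.1 CPM without auxin and at 3.11, 2.92 and 3.65 CPM with it (log2 fold change −1.79 ± 0.14, edgeR adjusted p = 2.56e-04). Its RNA-seq level was 9.58, 10.1 and 11.4 CPM at 0 h and 4.20, 5.27 and 5.55 CPM at 4 h. Bbs4 had thus fallen in both assays by 4 h (RNA-seq −1.05 ± 0.18, edgeR adjusted p = 3.56e-03). Libraries with and without auxin did not overlap in either assay, as for every member that passed in these comparisons. It was at 3.35, 4.17 and 5.45 CPM at 24 h and at 4.43, 4.97 and 4.96 CPM at 48 h, log2 changes from 0 h of −1.26 ± 0.18 and −1.11 ± 0.18. From 4 to 24 h and from 24 to 48 h no change passed (−0.21 ± 0.18 and 0.15 ± 0.18).

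Cep128, a protein of the subdistal appendages that anchor microtubules at the mother centriole, fell in nascent RNA from 226.9, 226.1 and 257.6 CPM to 109.0, 111.3 and 116.8 CPM (−1.08 ± 0.09, edgeR adjusted p = 2.87e-04). Its RNA-seq levels were 66.6, 80.6 and 88.2 CPM at 0 h and 63.2, 46.6 and 63.4 CPM at 4 h, a difference that did not pass (−0.44 ± 0.18). At 24 h the level was 20.1, 19.3 and 31.1 CPM (−1.74 ± 0.19, edgeR adjusted p = 9.71e-06), and at 48 h it was 23.4, 32.5 and 25.9 CPM (−1.52 ± 0.19). Like Cdk5rap2, Cep128 thus fell in nascent RNA at 4 h and in RNA-seq at 24 and 48 h.

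Cep350, which binds the FOP protein encoded by Cep43, went in nascent RNA from 197.4, 220.4 and 198.8 CPM to 117.8, 138.0 and 122.2 CPM (−0.71 ± 0.09, edgeR adjusted p = 2.89e-03). In RNA-seq it had 115.6, 116.0 and 114.0 CPM at 0 h and 86.3, 94.8 and 89.4 CPM at 4 h, which did not overlap and did not pass (−0.35 ± 0.13). It had fallen at 24 h (−0.66 ± 0.13) and at 48 h (−0.49 ± 0.13). Cep43 itself is listed by that name only in the time series. It rose from 46.3, 48.6 and 48.1 CPM to 88.3, 73.3 and 84.5 CPM at 4 h, the largest rise of a member at that time (0.78 ± 0.09, edgeR adjusted p = 4.18e-04), and stayed higher at 24 h (0.56 ± 0.09) and 48 h (0.44 ± 0.09). The TT-seq table lists this gene under its older symbol Fgfr1op, whose nascent RNA also rose (0.55 ± 0.08, edgeR adjusted p = 4.36e-03).

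Cep135, a part of the cartwheel on which a centriole is assembled, was lower in all 4 comparisons with auxin-free libraries, as was Bbs4. Nascent RNA went from 55.0, 54.4 and 54.8 CPM to 37.8, 38.7 and 42.5 CPM (−0.46 ± 0.08, edgeR adjusted p = 9.29e-03). RNA-seq gave 39.8, 44.6 and 40.5 CPM at 0 h, 30.3, 28.8 and 32.5 CPM at 4 h, 31.5, 27.9 and 31.1 CPM at 24 h and 27.8, 26.1 and 26.5 CPM at 48 h. No auxin library reached the lowest 0 h library, and the log2 changes were −0.45, −0.46 and −0.63, each ± 0.08. Of the 55 members tested in both assays these 2 were the only ones lower in all 4 comparisons, and none was higher in all 4. Cep43, outside these 55 because TT-seq lists it as Fgfr1op, was higher in all 4. The share of all genes called alike in all 4 was not computed.

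Pcnt (pericentrin, the large scaffold that binds Cdk5rap2) had nascent levels of 140.6, 141.2 and 148.0 CPM without auxin and 101.5, 98.4 and 111.5 CPM with it (−0.46 ± 0.08, edgeR adjusted p = 9.93e-03). In RNA-seq it was at 162.0, 146.1 and 149.1 CPM at 0 h and 129.4, 129.0 and 128.0 CPM at 4 h, then at 132.8, 152.8 and 122.4 CPM at 24 h and 103.6, 115.0 and 134.6 CPM at 48 h. The time points at 4 h (−0.24 ± 0.09) and 24 h (−0.16 ± 0.09) did not pass, and 48 h did (−0.37 ± 0.09, edgeR adjusted p = 4.82e-03). Cep97, which caps centrioles together with the Ccp110 protein, fell in nascent RNA from 20.2, 19.9 and 19.4 CPM to 13.6, 16.6 and 13.9 CPM (−0.43 ± 0.11, edgeR adjusted p = 0.0413). Its RNA-seq level was 19.6, 18.7 and 21.8 CPM at 0 h, 18.1, 17.1 and 16.6 CPM at 4 h, 14.5, 10.7 and 9.11 CPM at 24 h and 9.04, 10.0 and 8.43 CPM at 48 h. It had fallen by 43.0% at 24 h (−0.81 ± 0.14) and by 54.3% at 48 h (−1.13 ± 0.14).

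Nascent RNA of Ift81 rose from 13.3, 17.7 and 18.2 CPM to 21.5, 27.6 and 25.1 CPM (0.59 ± 0.15, edgeR adjusted p = 0.0396). Ift74, whose protein joins Ift81 to bind tubulin cargo, rose from 18.7, 18.8 and 17.3 CPM to 23.1, 25.3 and 24.0 CPM (0.40 ± 0.09, edgeR adjusted p = 0.0283). Bbs7 rose from 7.15, 7.64 and 8.13 CPM to 9.90, 10.6 and 11.01 CPM (0.46 ± 0.11, edgeR adjusted p = 0.0373). In all 3 the groups did not overlap, as for every member that passed in TT-seq, so this adds no support to the tests. Cntrob, the daughter centriole protein centrobin, did not pass in nascent RNA (0.30 ± 0.09). These 3 rises and the fall of Cep97 were close to the threshold. Bbs7 did not pass once any 1 library was left out, nor did Ift81 or Ift74 without any 1 untreated library or without auxin replicate 2 or 3, so that 0 to 2 members then rose. Cep97 did not pass without any 1 library except auxin replicate 2, and Cep135 and Pcnt did not pass without untreated replicate 3, where 4 members fell.

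TT-seq libraries of the same replicate number deviated together, so a fit with the number as a block was also made. It called 15 members higher and 15 lower (27.3% each), among all genes 22.7% and 25.3%. All 10 genes above were among them, Cdk5rap2 with −2.18 ± 0.04. Further members that fell in that fit included Ift122 (−0.37 ± 0.07), Bbs9 (−0.34 ± 0.04) and Cep41 (−0.31 ± 0.07), and further members that rose included Cep19 (0.48 ± 0.15), Cep131 (0.38 ± 0.09), Cntrob (0.29 ± 0.06) and Ift140 (0.21 ± 0.05). With library sizes from the Drosophila spike-in RNA and no block no member passed (0.00891% of all genes higher and 0% lower by edgeR, and 73 genes and 2 members at an unadjusted p under 0.05), while Cdk5rap2 had a like change with a wide error (−2.27 ± 0.83). With spike-in sizes and the block 6 members were higher and 12 lower (10.1% and 21.5% of all genes). The ratio of mouse to spike-in counts ranged from 43.1 to 114.7 among untreated libraries alone.

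RNA-seq at 4 h called 2 members lower (Bbs4 and Cep135) and 2 higher (Cep43 and Cep57) of 61 tested. These shares of 3.28% each lie near the 4.14% lower and 3.14% higher among all 15157 genes. Cep57, a pericentriolar protein that helps recruit the duplication machinery, went from 74.6, 73.5 and 76.3 CPM to 88.3, 82.7 and 92.8 CPM (0.23 ± 0.06, edgeR adjusted p = 0.0391). It was the only member higher at 4, 24 and 48 h of those tested in both assays. Cep43, not listed under that symbol in TT-seq, was also higher at these times. Cep57 did not pass with RLE scaling or once any 1 library was left out. With DESeq2 2 members were higher and 6 lower at 4 h (5.25% and 8.43% of all genes), the further ones being Bbs2, Bbs9, Cep162 and Cep350.

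By 24 h 25 members were higher and 13 lower of 61 tested, and at 48 h 24 were higher and 15 lower. The share of members higher was 41.0% at 24 h and 39.3% at 48 h, beside 21.5% and 24.9% of all genes. The share lower was 21.3% and 24.6%, beside 21.5% and 24.6% of all genes. Their median log2 fold change was 0.16 at 24 h and 0.15 at 48 h, that of all genes 0.03 at both times. Lower at both times were 12 members and higher at both times 18, of the 55 tested in both assays, and no member was called in opposite directions. Both times share the 0 h libraries, so these counts are not independent of each other. The share of all genes called alike at both times was not computed, so the 12 and 18 have no background beside them.

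**Figure D2:**
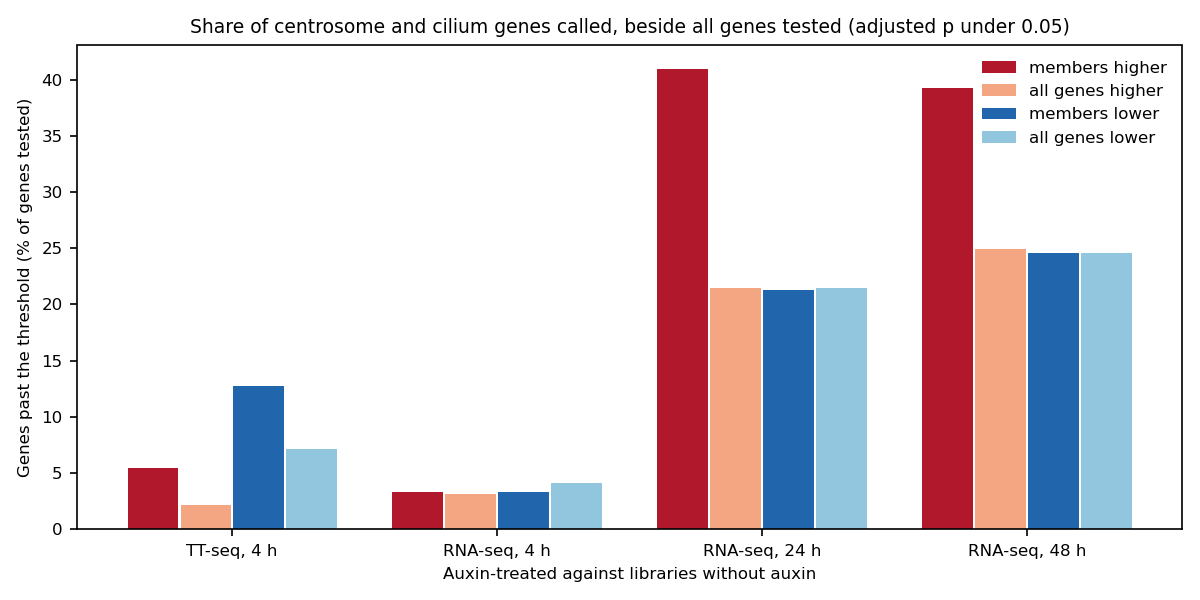
Percent of tested genes past the threshold (y axis, from 0) in each comparison with libraries without auxin, for the centrosome and cilium genes (dark bars) and for all genes of the same table (light bars), higher in red and lower in blue. The dark red bars stand above the light red ones at 24 h (41.0% and 21.5%) and 48 h (39.3% and 24.9%), while the blue bars are about level.

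**Figure D3:**
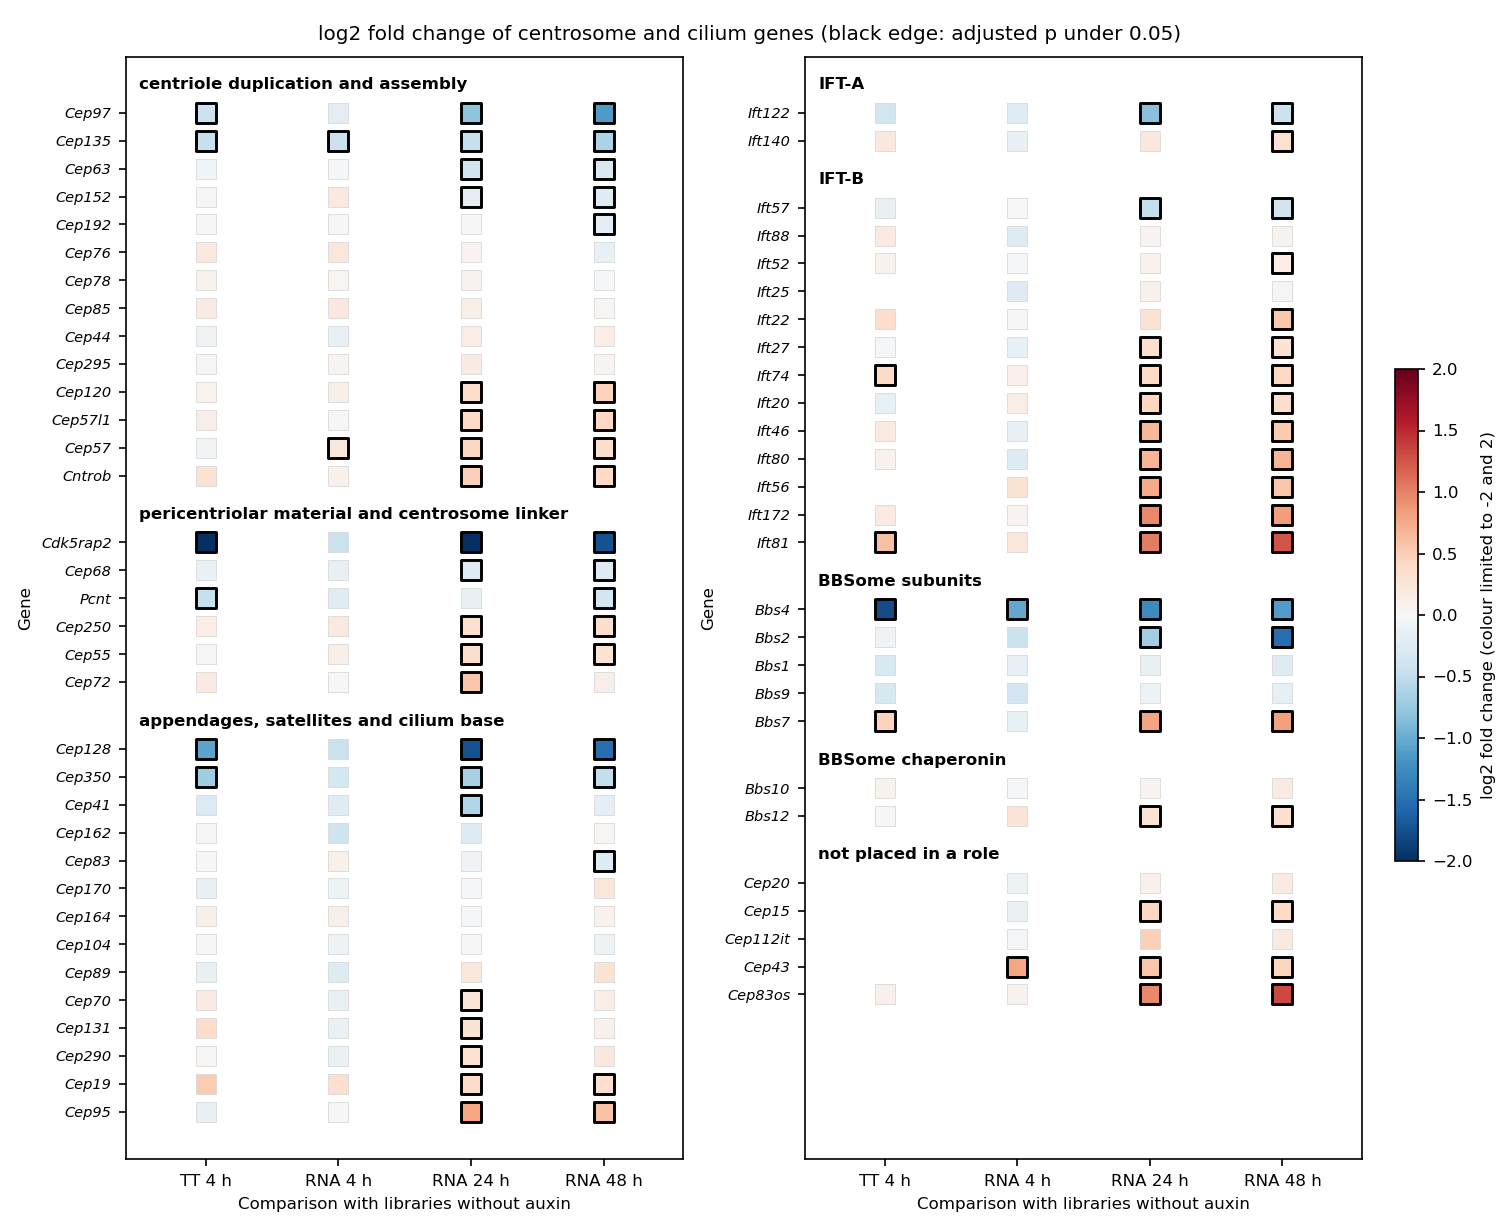
Log2 fold change (colour, limited to −2 and 2) of the 61 members tested in the time series, by role, against libraries without auxin; a black edge marks an adjusted p under 0.05 and a blank cell a gene not tested under that symbol in TT-seq. Red cells with a black edge are most frequent in IFT-B at 24 h (8 of 13) and 48 h (10 of 13).

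Among the 14 members with roles in centriole duplication and assembly, 4 rose and 4 fell at 24 h, and 4 rose and 5 fell at 48 h, with medians of 0.10 and 0.01. These are 28.6% each way at 24 h and 28.6% and 35.7% at 48 h, near the shares of all genes given above. Those that rose at both times were Cntrob, Cep57, its relative Cep57l1, and Cep120, which is needed for centriole elongation. Cntrob was at 63.4, 58.3 and 66.3 CPM at 0 h, 62.8, 68.8 and 69.8 CPM at 4 h, 88.5, 83.5 and 90.8 CPM at 24 h and 77.9, 88.5 and 82.2 CPM at 48 h. Its groups at 24 and 48 h lay above all libraries at 0 and 4 h (0.48 ± 0.07, edgeR adjusted p = 1.36e-04, and 0.40 ± 0.07, edgeR adjusted p = 3.97e-04). Cep120 rose from 64.7, 73.1 and 65.6 CPM at 0 h to 93.3, 89.8 and 97.3 CPM at 48 h (0.46 ± 0.07, edgeR adjusted p = 6.62e-05). Those that fell at both times were Cep135, Cep97, and Cep63 and Cep152, partners that bring Plk4 to the parent centriole. Cep63 changed by −0.40 ± 0.09 and Cep152 by −0.20 ± 0.06 at 24 h. Cep192, the other recruiter of Plk4, fell at 48 h alone (−0.22 ± 0.06). Cep76, Cep78, Cep85, Cep44 and Cep295 passed at neither time.

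Of 6 tested genes of the pericentriolar material and the linker between centrosomes, 3 rose and 2 fell at 24 h, and 2 rose and 3 fell at 48 h. Of all genes 21.5% passed each way at 24 h, and 24.9% rose and 24.6% fell at 48 h. A list of 6 genes is too short to be told apart from these shares. Cdk5rap2 and Cep68, a linker protein, fell at both times, Cep68 by much less (−0.26 ± 0.08 and −0.27 ± 0.08). Cep250 (C-Nap1), which docks the linker to the centriole, rose at both times, from 128.0, 123.8 and 102.7 CPM at 0 h to 160.1, 132.7 and 153.6 CPM at 24 h (0.33 ± 0.10, edgeR adjusted p = 0.0187). Cep55 also rose at both times (0.35 ± 0.09 and 0.29 ± 0.09), and its protein is best known for cytokinesis at the midbody. Cep72 passed at 24 h (0.56 ± 0.21, edgeR adjusted p = 0.0435) but not without replicate 1 or 3 at 0 h or replicate 2 or 3 at 24 h, where the change was 0.34 to 0.59, and its 0 h libraries at 14.4, 25.3 and 17.4 CPM overlapped those at 24 h (22.1, 35.7 and 26.2 CPM). Cep85l, the seventh gene, was not tested for low counts.

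Of 14 tested members at appendages, satellites and the cilium base, 5 rose and 3 fell at 24 h, and 2 rose and 3 fell at 48 h. These are 35.7% and 21.4% at 24 h, beside 21.5% of all genes each way. At 48 h they are 14.3% and 21.4%, beside 24.9% and 24.6%. Besides Cep128 and Cep350, Cep41 fell at 24 h, from 30.7, 29.9 and 25.8 CPM to 16.0, 20.2 and 20.6 CPM (−0.61 ± 0.12, edgeR adjusted p = 1.43e-03). Cep41 stood at 22.1, 26.4 and 26.8 CPM at 48 h, where it overlapped the 0 h libraries and did not pass. The protein takes part in glutamylation of ciliary tubulin. Cep95 rose at both times, from 20.7, 17.6 and 17.4 CPM to 34.0, 28.6 and 33.6 CPM at 24 h (0.79 ± 0.11, edgeR adjusted p = 7.53e-05). Cep290, a component of the gate at the cilium base, rose at 24 h (0.33 ± 0.11) and did not pass at 48 h (0.22 ± 0.11). Of Cep83, Cep89 and Cep164, which build the distal appendages, Cep83 alone passed, with −0.28 ± 0.08 at 48 h.

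Cep83os, an RNA named as the opposite strand of Cep83, had the largest rise of a member at 48 h. It was at 19.4, 21.4 and 17.5 CPM at 0 h, 21.3, 19.6 and 20.8 CPM at 4 h, 39.3, 35.1 and 38.7 CPM at 24 h and 48.1, 47.98 and 50.3 CPM at 48 h. The changes from 0 h were 0.95 ± 0.08 and 1.33 ± 0.08 (edgeR adjusted p = 7.14e-08 at 48 h), and the step from 24 to 48 h also passed (0.37 ± 0.08, edgeR adjusted p = 0.0185), though not without replicate 2 at 24 h or replicate 1 or 3 at 48 h. The sources do not state how strand entered the counting, so its reads and those of Cep83 cannot be told apart with certainty.

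**Figure D4:**
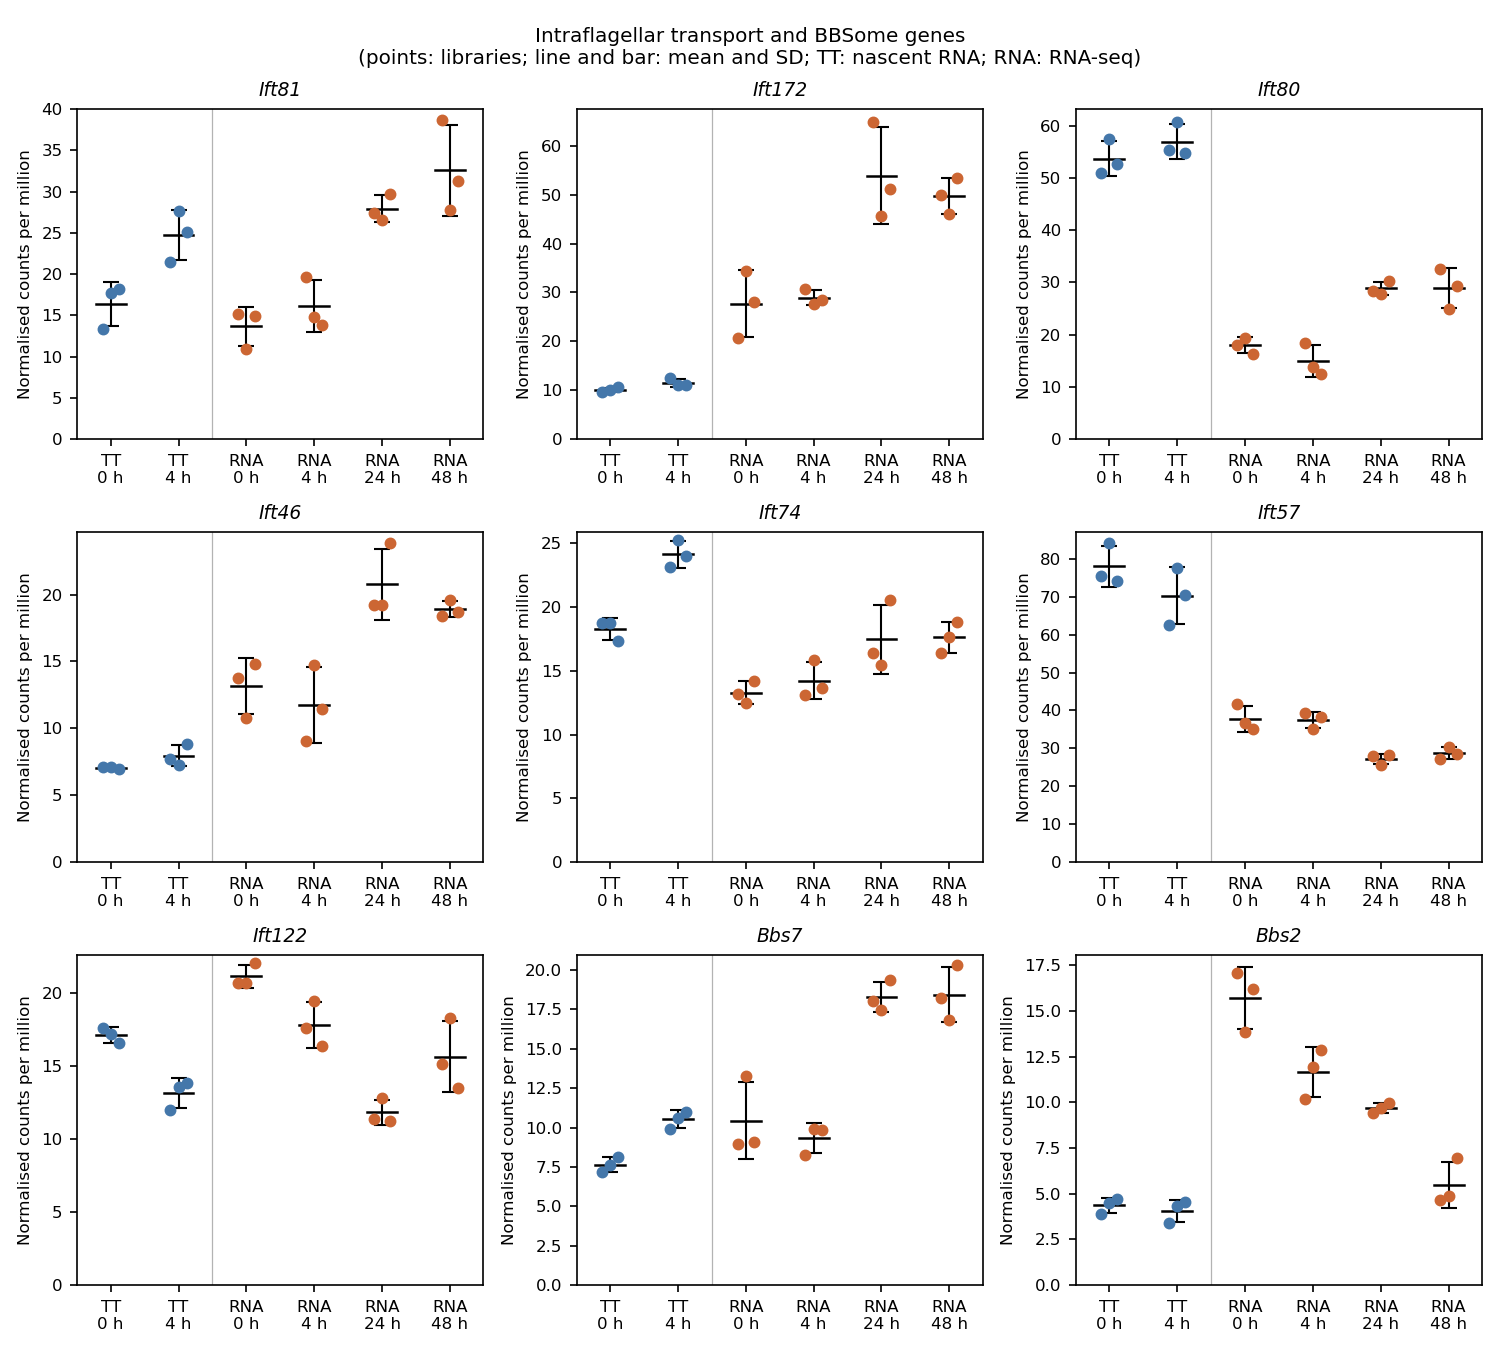
Normalised CPM (y axis, from 0) of 9 transport genes in TT-seq (blue) and RNA-seq (orange) libraries by hours of auxin; points are libraries, lines and bars the mean and SD. Ift81, Ift172, Ift80, Ift46 and Bbs7 have overlapping libraries at 0 and 4 h in RNA-seq and higher levels at 24 and 48 h, and Ift57, Ift122 and Bbs2 are lower.

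IFT-B is the complex of the outward train. Of its 13 tested genes with an Ift symbol 8 rose and 1 fell at 24 h, and 10 rose and 1 fell at 48 h. Their median log2 fold change was 0.39 and 0.41. Subunits of IFT-B, IFT-A and the BBSome under other symbols are not members, so these counts are not those of whole complexes. The share that rose was 61.5% and then 76.9%, beside 21.5% and 24.9% of all genes. At 4 h none passed in RNA-seq (median −0.02), and between 4 and 24 h 7 rose and 1 fell. Ift81 was at 15.2, 10.96 and 14.9 CPM at 0 h, 19.7, 14.8 and 13.9 CPM at 4 h, 27.4, 26.6 and 29.7 CPM at 24 h and 38.7, 27.8 and 31.3 CPM at 48 h. It had risen by 103.9% at 24 h (1.03 ± 0.16, edgeR adjusted p = 1.87e-04) and by 138.1% at 48 h (1.25 ± 0.16, edgeR adjusted p = 2.43e-05). Ift172, a subunit of the peripheral part of the complex, was at 20.7, 34.4 and 28.0 CPM at 0 h, 64.8, 45.5 and 51.2 CPM at 24 h and 49.8, 46.0 and 53.3 CPM at 48 h (0.96 ± 0.16 and 0.84 ± 0.16). Its 0 h libraries differed more among themselves than those of Ift80.

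Ift80, of the same peripheral part, was at 18.1, 19.4 and 16.4 CPM at 0 h, 18.3, 13.9 and 12.5 CPM at 4 h, 28.5, 27.9 and 30.2 CPM at 24 h and 32.5, 25.0 and 29.2 CPM at 48 h (0.68 ± 0.13 and 0.69 ± 0.13). Ift46 rose from 13.8, 10.8 and 14.8 CPM to 19.2, 19.2 and 23.9 CPM at 24 h (0.66 ± 0.16, edgeR adjusted p = 4.91e-03). Ift56 rose from 2.61, 3.70 and 3.18 CPM to 5.61, 6.17 and 4.22 CPM (0.75 ± 0.18, edgeR adjusted p = 4.37e-03). Ift20, Ift27 and Ift74 rose at both times with smaller changes (0.31 to 0.44), and Ift22 and Ift52 passed at 48 h alone (0.54 ± 0.19 and 0.15 ± 0.05). Some of these rises rest on single libraries: without 0 h replicate 1 Ift22 (0.31) and Ift56 (0.41) did not pass at 48 h and Ift74 (0.38) did not at 24 h, without 0 h replicate 2 Ift46 (0.39) and Ift74 (0.35) did not at 48 h, and Ift22 did not without any 1 of the 48 h libraries. Ift56 at 48 h was also lost without 0 h replicate 3 or 48 h replicate 2, and Ift74 at 24 h without 0 h replicate 2 or 24 h replicate 3. Ift25 and Ift88 passed at neither time. Ift57, the binding partner of Ift20, went the other way: 41.6, 36.7 and 35.1 CPM at 0 h, 27.9, 25.7 and 28.1 CPM at 24 h and 27.2, 30.4 and 28.4 CPM at 48 h (−0.47 ± 0.08, edgeR adjusted p = 5.27e-04, and −0.40 ± 0.08, edgeR adjusted p = 1.33e-03). Ift70a1, Ift70a2 and Ift70b had at most 1 count in the time series.

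IFT-A had 2 tested genes with an Ift symbol, both for core subunits. Ift122 fell from 20.7, 20.7 and 22.1 CPM at 0 h to 11.4, 12.8 and 11.3 CPM at 24 h (−0.84 ± 0.12, edgeR adjusted p = 7.00e-05) and stood at 15.1, 18.3 and 13.5 CPM at 48 h (−0.44 ± 0.11). Ift140 was at 68.1, 68.6 and 68.7 CPM at 0 h and rose to 93.1, 78.4 and 86.1 CPM at 48 h (0.33 ± 0.08, edgeR adjusted p = 3.99e-03). Ift43, the third with such a symbol, had no counts in the time series.

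BBSome subunits split. Bbs2 had 17.1, 13.8 and 16.2 CPM at 0 h, 10.2, 11.9 and 12.9 CPM at 4 h, 9.45, 9.70 and 9.97 CPM at 24 h and 4.65, 4.85 and 6.93 CPM at 48 h. It had fallen at 24 h (−0.70 ± 0.15, edgeR adjusted p = 1.93e-03) and further at 48 h (−1.52 ± 0.15, edgeR adjusted p = 3.19e-06), and was the only member lower at 48 h than at 24 h (−0.82 ± 0.15, edgeR adjusted p = 8.47e-03). Its nascent RNA at 4 h did not pass (−0.09 ± 0.16). Bbs7, which forms the core of the complex with Bbs2 and Bbs9, was at 8.97, 13.3 and 9.05 CPM at 0 h, 8.25, 9.90 and 9.86 CPM at 4 h, 18.0, 17.5 and 19.3 CPM at 24 h and 18.2, 16.8 and 20.3 CPM at 48 h (0.81 ± 0.14 and 0.82 ± 0.14). Bbs1 and Bbs9 passed at no time, and Bbs5 was not tested for low counts. Of the chaperonin-like genes with a Bbs symbol, needed to assemble the complex, Bbs12 rose at both times (0.30 ± 0.09 and 0.33 ± 0.09) and Bbs10 did not pass (0.06 ± 0.10 and 0.18 ± 0.09).

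From 24 to 48 h 1 member rose (Cep83os) and 1 fell (Bbs2), 1.64% each beside 3.03% and 2.84% of all genes. Without replicate 2 of the 24 h libraries Cep83os did not pass and no member rose. With DESeq2 4 rose and 2 fell (6.29% and 5.36% of all genes), those that rose including Cdk5rap2 (1.04, DESeq2 adjusted p = 0.0343), Cep41 (0.42) and Ift122 (0.41), each lower at 24 h than at 0 h. Between 4 and 24 h 22 members rose and 8 fell (36.1% and 13.1%, beside 15.9% and 17.7% of all genes).

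Other genes of the same structures, in 2 lists by function, were read out of the same fits. Of 47 tested genes of other centriole and centrosome proteins, 1 was higher and 5 lower in nascent RNA, 0 and 8 at 4 h in RNA-seq, 13 and 13 at 24 h and 12 and 14 at 48 h. At 24 h this is 27.7% each way, beside 21.5% of all genes each way, and at 48 h 25.5% and 29.8%, beside 24.9% and 24.6%. The 17.0% lower at 4 h stand beside 4.14% of all genes, and the 2.13% higher and 10.6% lower in nascent RNA beside 2.11% and 7.09%. The 1 higher in nascent RNA was Fgfr1op, which is Cep43. Akap9, a large scaffold of centrosome and Golgi that is related to Pcnt, was lower in all 4 comparisons (−1.28 ± 0.08 in nascent RNA, then −0.66 ± 0.11, −1.46 ± 0.12 and −1.25 ± 0.11). Plk4, the kinase that starts centriole duplication, was lower in nascent RNA (−0.65 ± 0.09, edgeR adjusted p = 3.20e-03) and at 4 h (−0.51 ± 0.06), 24 h (−0.47 ± 0.06) and 48 h (−0.53 ± 0.06). Sass6, the cartwheel protein, was lower in nascent RNA (−0.62 ± 0.08). Haus7, a subunit of augmin, was lower at 24 h (−1.25 ± 0.10) and 48 h (−1.37 ± 0.10), while the distal appendage genes Fbf1 (0.76 ± 0.10) and Sclt1 (0.72 ± 0.08) were higher at 24 h.

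Of the list of other cilium transport and transition zone genes, 1 of 43 was higher and 2 were lower in nascent RNA. These are 2.33% and 4.65%, beside 2.11% and 7.09% of all genes. In RNA-seq 3 of 38 were higher and 1 lower at 4 h, 16 and 6 at 24 h, and 14 and 9 at 48 h. At 4 h this is 7.89% and 2.63%, beside 3.14% and 4.14% of all genes. The shares higher were 42.1% and 36.8% at 24 and 48 h, beside 21.5% and 24.9% of all genes, and the shares lower were 15.8% and 23.7%, beside 21.5% and 24.6%. Tmem67, of the transition zone, was among those that rose (1.00 ± 0.13 at 24 h and 1.26 ± 0.13 at 48 h). Rfx1, a transcription factor of the family that regulates cilium genes, was lower in nascent RNA (−0.71 ± 0.14, edgeR adjusted p = 0.0191) and at 4 h (−0.60 ± 0.10). Kifap3, the non-motor subunit of the kinesin that drives IFT-B, was lower at 24 h (−0.70 ± 0.08).

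Many centrosome genes vary over the cell cycle, so genes of 2 phases were measured beside them. Of 28 genes of S phase, 1 rose and 14 fell at 24 h and 1 rose and 21 fell at 48 h (medians −0.19 and −0.34). Their summed level was 7450.3 to 8078.4 CPM at 0 h and 7093.0 to 7253.9 CPM at 4 h. It was 5944.6 to 6621.4 CPM at 24 h and 5413.0 to 5827.1 CPM at 48 h. Of 28 genes of G2 and M phase, 9 rose and 5 fell at 24 h and 6 rose and 8 fell at 48 h (medians 0.09 and −0.05). For G2 and M phase these are 32.1% and 17.9% at 24 h and 21.4% and 28.6% at 48 h, beside 21.5% each way and then 24.9% and 24.6% of all genes. The S phase genes that fell are 50% at 24 h and 75.0% at 48 h. In RNA-seq at 4 h none of the S phase genes rose and 2 fell (7.14%), while 3 G2 and M genes rose (10.7%) and none fell. Of all genes 3.14% rose and 4.14% fell at that time. In nascent RNA at 4 h 1 of the S phase genes rose and none fell, and none of the G2 and M genes rose and 1 fell. Each of these is 3.57%, beside 2.11% higher and 7.09% lower of all genes. The part of these genes, and of the erythroid, megakaryocyte and mast cell markers above, in the changes at 4, 24 and 48 h was not tested.

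In untreated cells, none of 42 tested members passed by edgeR in either YY1-AID line against the parental line. With 2 libraries in each line this does not show that the lines are alike: the same test called 0 of 10892 genes (0%) in either line, although 557 and 534 genes had an unadjusted p under 0.05, among them 1 member and 0 members. DESeq2 called 52 genes higher and 124 lower in the YY1-AID subline and 84 and 46 in subline3. Cdk5rap2 was at 60.7 and 50.1 CPM in parental cells, 58.8 and 53.2 CPM in the YY1-AID subline and 49.7 and 55.6 CPM in subline3 (log2 changes 0.02 ± 0.19 and −0.07 ± 0.19). Pcnt and Cntrob did not pass either (0.17 ± 0.36 and 0.04 ± 0.19 in the YY1-AID subline). Ift122 was the member that varied most between lines, with 8.18 and 17.1 CPM in parental cells, 3.45 and 6.29 CPM in the YY1-AID subline and 24.8 and 25.3 CPM in subline3. None of the 3 lines overlapped, but each has 2 libraries and the share of all genes without overlap is not given. Its changes from parental were −1.38 ± 0.46 and 0.99 ± 0.45 (edgeR adjusted p = 0.744 and 0.993). With replicate number as a block 1 member was lower in the YY1-AID subline and 2 were higher in subline3, Ift122 in both (of all genes 1.63% were higher and 2.40% lower in the first, 4.20% and 2.05% in the other), with changes of −1.35 ± 0.24 (edgeR adjusted p = 0.0144) and 1.09 ± 0.23 (edgeR adjusted p = 0.0275). The 0 h libraries of the same YY1-AID subline in the time series, a separate table, had 20.7 to 22.1 CPM of Ift122. Levels of different tables are not comparable, so this is no measured difference.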

How the data were processed

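The deposited RNA-seq tables held expected counts by gene symbol, already whole numbers; TT-seq values were read counts per gene that the authors deposited, with Drosophila spike-in counts in a separate table. Salmon 0.13.1 is named for RNA-seq, Trim Galore 0.6.10 and STAR for TT-seq, all beside mm9, per the submitters' processing notes. The sources state neither the transcript set nor the strand setting. Lines of the TT-seq table without a gene stayed out (no feature 17.2% to 22.2%, ambiguous 0.391% to 0.529% of a library). Each table was fitted whole with edgeR 4.0.16 in R 4.3.3 (TMM, filterByExpr by group, no replicate term), and p-values were adjusted over 11218 (TT-seq), 15157 (time series) or 10892 (untreated lines) genes. Members not tested numbered 7, 12 and 1, and 1, 7 and 1 of these had no counts. CPM used the same library sizes.

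The members and lists were chosen with earlier results of these data known. Named were Cdk5rap2, Pcnt and Cntrob and all members called in TT-seq or at 4 h. At 24 and 48 h the 10 highest and 10 lowest called were named. Of each further list up to 4 genes with the smallest p were named in each comparison, so more than 4 can appear. Other members are named to complete a complex, chosen after their values were seen. Symbols were not updated: 31 members are not listed in the untreated lines and 12 in TT-seq, of which 17 and 2 appear under an older symbol. Same-numbered TT-seq libraries correlated in their deviations from group means (0.40 to 0.66, other pairs at most −0.09). The numbers were therefore taken as pairs, from the data, but only in the fits with a replicate block. The main TT-seq fit, which gave the values by gene, left this pairing out. In the time series same-numbered libraries did not correlate in this way (−0.07 to 0.10). Alternatives were RLE scaling, DESeq2 1.42.0, no filter, a replicate block, each library left out, spike-in sizes, and Rn45s left out. The fits were tested on simulated data.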

Additional observations from a re-analysis of the deposited data

Results flagged for a closer look

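In 14 members the change from 0 h had opposite signs at 4 and 24 h and the difference between those times passed the threshold (edgeR, adjusted over all genes). They are 23.0% of the 61 members tested, beside 2184 of 15157 genes (14.4%). In 13 of them (21.3%, beside 7.23% of all genes) the level was below 0 h at 4 h and above it at 24 h: the log2 change at 24 h exceeded that at 4 h by 0.97 in Bbs7, 0.95 in Ift80, 0.82 in Ift46, 0.56 in Cep15, 0.50 in Ift27, 0.48 in Cep89, 0.45 in Cep290, 0.42 in Cep131, 0.40 in Cep70, 0.36 in Ift25, 0.35 in Ift140, 0.33 in Cep44 and 0.20 in Cep20. Cep152 went the other way (−0.40). None of the 14 had passed at 4 h, where their log2 changes lay between −0.27 and 0.19. Cep20, Cep44, Cep89, Ift140 and Ift25 did not pass at 24 h against 0 h either. In Ift25 the change at 4 h (−0.26) was larger than that at 24 h (0.10), and in Cep89 they were alike in size (−0.25 and 0.23).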

How the results depend on the processing

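TT-seq counts depended most on the treatment of replicates. With the replicate block 15 members were higher and 15 lower, against 3 and 7 without it. With spike-in library sizes 0 were higher and 0 lower, and with spike-in sizes and the replicate block 6 and 12. The shares of all genes in these fits are given above. Without replicate 1 of both groups 1 member was higher and 4 were lower, beside 70 and 467 of 11576 genes. Leaving out 1 library gave 0 to 2 higher and 4 to 7 lower, the 4 without untreated replicate 3. The share of higher calls among all TT-seq calls was 23.0%, 47.3% with the block and 31.9% with spike-in sizes and the block. In RNA-seq at 4 h, 1 member was higher with RLE scaling, beside 417 of 15157 genes. Without the filter 1 was higher and 6 were lower, beside 522 and 865 of 30599 genes. With DESeq2 6 were lower, beside 1029 of 12201 genes. Leaving out 1 library gave 1 to 2 higher. Without the filter Cdk5rap2 (−0.46) was among those lower at 4 h. Without replicate 2 at 24 h the 1 member that rose to 48 h was lost. From 24 to 48 h, DESeq2 gave 4 higher and 2 lower, beside 767 and 654 of 12201 genes. No filter gave 3 higher, beside 599 of 30599 genes, and the replicate block 4 higher, beside 652 of 15157. Leaving out 1 library gave 0 to 1 higher. Counts at 24 h (17 to 22 higher, 12 to 13 lower) and 48 h (18 to 22 and 14 to 15) stayed within 1.5 times when 1 library was left out. In the untreated lines the replicate block, with same-number correlations of 0.74 and 0.68 from 2 numbers, gave 1 member lower in the YY1-AID subline and 2 higher in subline3 (Ift122 and Cep70). In the time series the block changed no count by over 1.5 times except from 24 to 48 h. Of the recomputed counts 130 stayed within 1.5 times and 30 did not; of the recomputed values of named members none reversed, 1825 kept their side of the threshold, 73 lost it and 42 gained it. The causes were not tested. Members with few counts included Bbs1 in TT-seq (32 to 89 counts a library), and the part of depth in what did not pass was not tested.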

Other observations

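Kif3a and Kif3b, the motor subunits that join Kifap3 in the kinesin of intraflagellar transport, were also lower at 24 h (−0.38 ± 0.08 and −0.26 ± 0.07) and 48 h (−0.36 ± 0.08 and −0.21 ± 0.07) by edgeR, and Dync2h1, the heavy chain of the dynein that returns with IFT-A, was lower at both times (−0.50 ± 0.10 and −0.80 ± 0.10). These motor genes were picked after their values were seen. Most tested IFT-B genes with an Ift symbol rose at the same times.

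The difference between the untreated lines subline3 and YY1-AID subline, added after seeing the data, was 2.36 ± 0.47 in Ift122 and did not pass (edgeR adjusted p = 0.277; 2.44 with the replicate block, edgeR adjusted p = 7.96e-04). In that table libraries of different replicate number within a line differed more than the lines did in several members: Cep350 was at 32.0 and 97.6 CPM in the 2 parental libraries, 32.4 and 108.7 CPM in the YY1-AID subline and 48.1 and 111.3 CPM in subline3. Cep170 (20.1 and 63.7 CPM in parental cells) and Ift80 (6.25 and 20.2 CPM) showed the same order in all 3 lines, replicate 1 below replicate 2.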
